A study of Rattus norvegicus with 6 samples.

Results

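A set of 12172 accessible regions in INS-1 cells was called as a peak in all 3 WT libraries and in none of the 3 Med14 S983A libraries. These regions, called WT-only peaks here, were chosen from the list of calling libraries that accompanies each merged ATAC-seq peak, out of 220487 merged peaks off the mitochondrial chromosome. They made up 10.9% of the 112155 peaks called in every WT library. Because the calls in all 6 libraries chose them, their absence from Med14 S983A is a description and carries no test.

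INS-1 is a rat insulinoma line used as a model of pancreatic beta cells. WT INS-1 cells were compared with INS-1 cells carrying Med14 S983A, an alanine in place of a serine at a PKA recognition site of Med14, introduced by CRISPR-Cas9 with a repair template and followed by sorting of single cells. Each genotype gave a library without stimulus (CON), a library after 1 h of Exendin-4 at 10 nM (Ex-4) and a library after 1 h of forskolin at 10 µM (FSK), all from cells held in serum-free medium before the exposure. The study made 2 mutant lines independently, and its methods state for all experiments that replicates and both lines were used. The series holds 1 library per condition, however. Neither the labels nor the methods name the line behind the 3 Med14 S983A libraries or say whether cultures were pooled, so genotype and clone cannot be told apart.

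ATAC-seq uses the Tn5 transposase, which inserts adapters where DNA is not covered by nucleosomes, so that read density marks open promoters, enhancers and other regulatory regions. Mediator is the complex that carries signals from transcription factors bound at such regions to RNA polymerase II, and Med14 is the subunit that holds its modules together. Ex-4 activates the GLP-1 receptor and FSK activates adenylate cyclase directly, and both raise cAMP, which activates PKA. The genes beside the regions, their sequences and the marker genes of the cell type were not analysed here, and each region is given by its position in rn6.

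The values are FPKM, a read density scaled to the length of the peak and to the reads inside the peaks of the same library. Reads inside peaks, recovered from the steps of the smallest values, came to between 151500000 and 251200000 in the WT libraries and between 134300000 and 163000000 in the Med14 S983A libraries. Between 131253 and 169448 peaks were called per WT library and between 119021 and 144166 per Med14 S983A library. A value of 0 marks a peak outside a library's own list and does not mean that no read fell there, so no fold change between genotypes was computed for the WT-only peaks. Each condition had 1 library, and no difference below has a replicate error or a p-value.

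The WT-only peaks were mostly of modest height and short. Their median level was 3.65 FPKM in WT CON, with 90% of them between 1.36 and 16.4 FPKM. In WT Ex-4 the median was 3.47 FPKM, and in WT FSK it was 3.06 FPKM. Peaks called in all 6 libraries had medians of 8.77, 8.70 and 8.42 FPKM in the same libraries and therefore stood well above them. The WT-only peaks had a median length of 323 bp, against 584 bp for peaks called in all 6 libraries.

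Read numbers per WT-only peak were high enough for small counting errors in most of them. The median number was 172 in WT CON, 176 in WT Ex-4 and 240 in WT FSK, which gives counting errors of 7.62%, 7.54% and 6.45%. The least covered WT-only peak held 17 reads in CON, 18 in Ex-4 and 27 in FSK of WT. The variation between repeated libraries is not known.

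The 3 WT-only peaks nearest the median of the mean WT level show what such a region looked like. The first, at chr17:76648645-76648862, had 2.28 FPKM in WT CON, 2.90 in WT Ex-4 and 4.97 in WT FSK. The next, at chr5:90412169-90412688, had 3.45, 3.14 and 3.57 FPKM in the same order. The last, at chr5:143266074-143266682, had 2.996, 3.66 and 3.50 FPKM. The chromosome 17 peak was highest in WT FSK, whereas both chromosome 5 peaks stayed within a narrow range.

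WT-only peaks varied more among the 3 WT libraries than peaks shared by both genotypes did. The ratio of the highest to the lowest WT value had a median of 1.57 for WT-only peaks and 1.29 for peaks called in all 6 libraries. The ratio reached 2 in 3243 WT-only peaks (26.6%), against 13.0% of peaks called in all 6 libraries. The 2 sets were not matched for height or length here. Lower and shorter peaks hold fewer reads, which widens the ratio by counting error alone. The lowest of the 3 values was that of WT FSK in 59.1% of WT-only peaks, and the share was the same, 59.1%, in peaks called in all 6 libraries.

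Heights at which the Med14 S983A libraries called peaks were set beside the WT levels of the WT-only peaks. The weakest 5% of called peaks lay below 1.21, 1.17 and 1.22 FPKM in Med14 S983A CON, Ex-4 and FSK, and 10744 WT-only peaks (88.3%) were above 1.22 FPKM in all 3 WT libraries. The median called peak of Med14 S983A CON had 5.38 FPKM, and 2491 WT-only peaks (20.5%) exceeded that level in all 3 WT libraries. Every WT-only peak had to be called in all 3 WT libraries. There the weakest 5% of called peaks lay below 1.28, 1.24 and 1.26 FPKM in CON, Ex-4 and FSK. The share of 88.3% therefore follows in large part from the rule. The same shares over all peaks called in every WT library were not computed.

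The share of peaks missing from the other genotype was compared in both directions. The mirror set, called in all 3 Med14 S983A libraries and in no WT library, held 4998 of 99613 peaks, or 5.02%, so that the WT-only set was 2.44 times as large. Each Med14 S983A library had fewer reads inside peaks and fewer called peaks than the WT library of the same treatment. The reads were 134300000 against 151500000 in CON, 147100000 against 158800000 in Ex-4 and 163000000 against 251200000 in FSK. Across treatments, Med14 S983A FSK had more reads inside peaks than WT CON and WT Ex-4, while Med14 S983A CON had the fewest of all 6 libraries. The part of depth in the difference of the shares was not tested.

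The excess of WT-only peaks over the mirror set was present at every height at which either was found. Among peaks with a mean of 2 to 3 FPKM over the WT libraries, 23.4% were WT-only, against 10.4% in the mirror direction. At 5 to 10 FPKM the shares were 8.80% and 4.32%. At 20 to 40 FPKM they were 1.91% and 0.995%, and above 80 FPKM both were 0. Above a mean of 10 FPKM, 1452 of 41862 peaks were WT-only (3.47%), and 645 of 37961 (1.70%) belonged to the mirror set. Above a mean of 40 FPKM, 25 of 3892 peaks were WT-only and 6 of 5029 belonged to the mirror set.

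**Figure D1:**
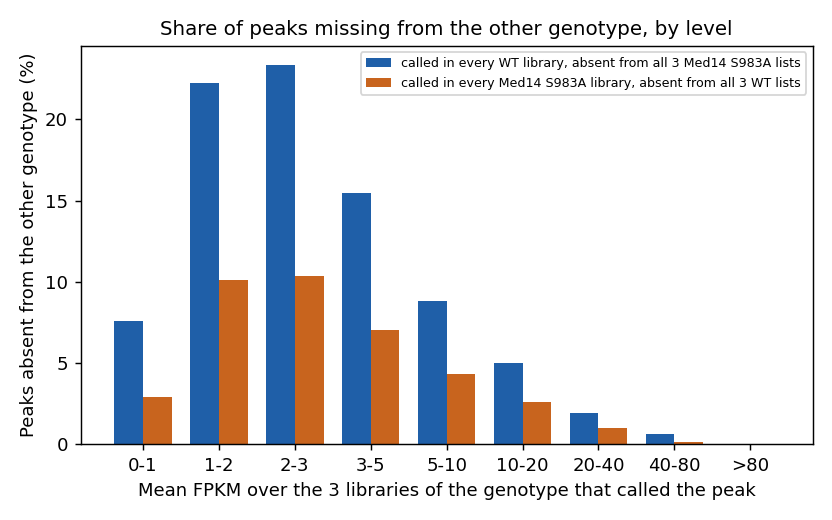
Share of peaks missing from the other genotype (percent, vertical axis) by the mean FPKM over the 3 libraries of the genotype that called the peak (horizontal axis, in bins). Blue bars are peaks called in every WT library and orange bars are peaks called in every Med14 S983A library, and the blue bar is the higher in each bin up to 80 FPKM, with 23.4% against 10.4% at 2 to 3 FPKM.

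Peaks just outside the set were called in every WT library and in exactly 1 Med14 S983A library, and there were 5380 of them. Their median level in that Med14 S983A library was 1.47 FPKM for the 1416 peaks also called in CON, 1.42 FPKM for the 1937 also called in Ex-4 and 1.63 FPKM for the 2027 also called in FSK. The medians of their mean WT level were 3.14, 3.05 and 3.37 FPKM, close to the 3.39 FPKM of the WT-only peaks. Some of the strongest of these peaks were low in the Med14 S983A library that called them. The peak at chr19:9808054-9808892 had 46.6 FPKM in WT CON, 59.2 in WT Ex-4 and 68.5 in WT FSK, and 1.28 FPKM in Med14 S983A Ex-4. The peak at chr4:160789329-160790563 had 37.1, 36.8 and 29.4 FPKM in the WT libraries and 0.205 FPKM in Med14 S983A CON. A higher value was seen at chr12:38028658-38029008, with 42.4, 51.7 and 64.6 FPKM in WT and 10.3 FPKM in Med14 S983A FSK.

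The other strongest peaks just outside the set followed the first pattern. With Med14 S983A CON they were chr16:54377942-54378332, with 33.6, 34.1 and 27.6 FPKM in WT and 1.16 FPKM in the mutant library, and chr1:205949512-205950141, with 39.6, 31.5 and 20.2 FPKM and 0.888 FPKM. With Med14 S983A Ex-4 they were chr10:74601127-74601674, with 44.1, 38.5 and 29.4 FPKM and 0.485 FPKM, and chr7:131019269-131019692, with 43.9, 40.6 and 27.1 FPKM and 0.771 FPKM. With Med14 S983A FSK they were chr12:51104733-51105419, with 55.0, 59.1 and 59.9 FPKM and 1.10 FPKM, and chr10:91944749-91945376, with 35.2, 50.4 and 67.3 FPKM and 1.60 FPKM. In each of these 6 peaks every WT value was far above the single value listed for Med14 S983A. All peaks named just outside the set were picked for the highest WT levels among peaks that a single Med14 S983A library called. The contrast therefore follows in large part from the choice. A listed value counts reads inside the library's own peak but is divided by the length of the merged peak. A narrow call inside a wide merged peak thus gives a low value, as may apply at chr4:160789329-160790563, with 34 reads over 1234 bp. The part of this in the values just outside the set was not tested.

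The 10 strongest WT-only peaks had mean levels between 48.9 and 60.2 FPKM and were spread over 8 chromosomes. The highest mean belonged to chr1:64434760-64435435, with 63.8 FPKM in WT CON, 62.6 in WT Ex-4 and 54.1 in WT FSK. The peak at chr19:42211278-42211739 had 49.0, 61.2 and 61.4 FPKM. Next was chr12:50312264-50312882, with 53.5, 56.8 and 56.9 FPKM. These 3 peaks were open at similar levels with and without stimulus.

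Several of the 10 followed FSK more closely. The peak at chr14:77339976-77340869 had 28.2 FPKM in WT CON, 52.8 in WT Ex-4 and 82.0 in WT FSK, the highest value of any WT-only peak in any library. The peak at chr6:28221455-28222445 had 35.2, 50.2 and 71.7 FPKM. Both rose at each step from CON over Ex-4 to FSK. In the opposite direction, chr3:165293443-165294069 had 66.3, 55.0 and 36.4 FPKM, and chr5:62596574-62597275 had 62.9, 52.5 and 31.4 FPKM. Lower FSK than CON values were also seen at chr7:15410060-15410755 (57.6, 57.2 and 49.3 FPKM), chr12:13294284-13294959 (61.3, 53.1 and 45.3 FPKM) and chr1:260936229-260937127 (58.1, 53.7 and 39.4 FPKM). Of the 10, 4 were highest in WT FSK and 6 in WT CON.

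Most WT-only peaks had no peak of the other genotype within 1 kb. The gap to the nearest peak called in a Med14 S983A library was at most 1 kb for 1921 of them (15.8%), against 29.5% of the mirror set measured to WT peaks. It was at most 10 kb for 7808 (64.1%), against 80.9%. The lists searched differ in size, with 131253 to 169448 peaks per WT library and 119021 to 144166 per Med14 S983A library. Gaps were not measured for other peaks called in every WT library, so these shares do not set the WT-only peaks apart. For the other 4364 WT-only peaks (35.9%) no Med14 S983A library had a peak within 10 kb. Among the 10 strongest, 4 had such a peak within 1 kb, at 120 bp for chr1:64434760-64435435, at 170 bp for chr19:42211278-42211739, at 555 bp for chr14:77339976-77340869 and at 902 bp for chr6:28221455-28222445. Whether a shifted peak boundary accounts for those calls was not tested. The largest gap among the 10 was 13077 bp, at chr5:62596574-62597275.

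WT-only peaks lay next to one another along the chromosomes. Among peaks called in every WT library, taken in chromosome order, the peak after a WT-only peak was itself WT-only in 25.1% of cases, and the peak after any other peak was WT-only in 9.12%. In the mirror set, taken in the order of the peaks called in every Med14 S983A library, the peak after a member was also a member in 12.1%. The mirror set made up 5.02% of those peaks, and WT-only peaks made up 10.9% of the peaks called in every WT library. Both sets thus had a raised share after a member. The counts of runs below are not adjusted for the different base shares. While 7482 WT-only peaks (61.5%) stood alone, 2464 (20.2%) were in 522 runs of 3 or more, and 1224 (10.1%) in 144 runs of 5 or more. The mirror set had 95 runs of 3 or more, with 6.54% of its members, and 10 runs of 5 or more. At least 10 in a row were found in 32 runs of WT-only peaks and in 1 run of the mirror set, and the longest runs held 81 and 12 peaks.

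**Figure D2:**
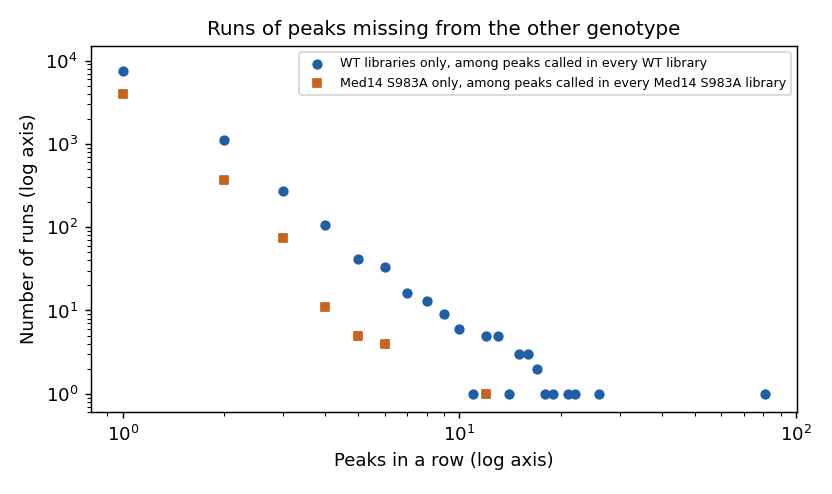
Number of runs (vertical axis, log scale) by the number of peaks in a row that were missing from the other genotype (horizontal axis, log scale). Blue circles are WT-only peaks among peaks called in every WT library and orange squares are the mirror set among peaks called in every Med14 S983A library, and the blue circles extend to a run of 81 peaks, against 12 for the orange squares.

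The 5 longest runs were on chromosomes 15, 12, 4, 9 and 1, and none of the merged peaks in their spans was called in any Med14 S983A library. The run at chr15:98573932-101939047 held 81 WT-only peaks over 3365 kb, with median levels of 4.33, 4.51 and 4.38 FPKM in WT CON, Ex-4 and FSK. The run at chr12:50557637-51095242 held 26 over 538 kb, with medians of 4.49, 4.77 and 4.09 FPKM. The run at chr4:177869551-178982021 held 22 over 1112 kb, with medians of 4.81, 4.21 and 3.29 FPKM. Peaks in these 3 runs were of modest height in WT, with medians a little above those of all WT-only peaks. The run at chr9:13847705-14216524 was more open, with 21 WT-only peaks over 369 kb and medians of 7.65, 8.04 and 6.19 FPKM. In the run at chr1:49074343-49618808 there were 19 over 544 kb, with medians of 6.09, 5.51 and 3.63 FPKM.

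Peaks called in all 6 libraries that flanked these runs differed from run to run. For each run, 20 such peaks were taken in equal numbers from both sides, whatever their distance. Around the chromosome 12 run, the median difference of log2(FPKM + 0.5) between Med14 S983A CON and WT CON was -1.37. Around the chromosome 4 run it was -0.81, and around the chromosome 1 run it was -0.59. Shared peaks beside those 3 runs were thus lower in the mutant library as well. Around the chromosome 15 run the median was 0.22 and around the chromosome 9 run it was 0.033, so the shared peaks there were not lower.

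The chromosome 15 run lay in the widest interval without a Med14 S983A peak anywhere in the table. From the end of one peak called in a Med14 S983A library at 98355485 to the start of the next at 102032072, 3.68 Mb held no peak of the 3 Med14 S983A libraries. Within it 110 merged peaks were called in WT libraries, 92 in WT CON, 91 in WT Ex-4 and 100 in WT FSK. In WT CON they held about 37047 reads, and with Ex-4 and FSK about 38324 and 55329. The widest gap without a WT peak in the interval was 218 kb, at its left edge before the first WT peak at 98573932. Since values outside the list of a library are set to 0, closed chromatin in this interval and a loss of its DNA in the Med14 S983A cells cannot be told apart from these values, and the same holds for the intervals counted below. The next widest interval without a Med14 S983A peak, 2.58 Mb on chromosome 4, held 4 WT peaks, and the widest interval without a WT peak anywhere was 1.80 Mb.

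Accessibility in WT was spread along the chromosome 15 interval from its first WT peak at 98573932 to its last, which ended at 101939047. Its strongest WT-only peak, chr15:100282451-100283224, had 20.6 FPKM in WT CON, 20.1 in WT Ex-4 and 16.6 in WT FSK. The peak at chr15:101576458-101577638 had 19.99, 18.2 and 13.0 FPKM. At chr15:100980241-100980731 the values were 23.5, 18.3 and 8.31 FPKM, a fall of 2.84-fold in FPKM from CON to FSK. Its 3 weakest were chr15:101429476-101429871 (1.62, 0.893 and 0.978 FPKM), chr15:101426444-101426652 (1.30, 1.33 and 1.19 FPKM) and chr15:100821975-100822221 (1.48, 1.77 and 1.57 FPKM). Of the 81 peaks, FSK raised 8 (9.88%) and lowered 5 (6.17%) at least 2-fold on the log2(FPKM + 0.5) scale, near the 6.96% and 5.48% of all peaks called in every WT library.

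Signal in the Med14 S983A libraries was present right up to the interval and after it. The nearest peak called in all 6 libraries on the left, chr15:98354897-98355485, had 3.38, 3.46 and 3.28 FPKM in WT CON, Ex-4 and FSK and 6.01, 6.30 and 5.92 FPKM in the corresponding Med14 S983A libraries. The nearest on the right, chr15:102164236-102166358, had 12.8, 12.4 and 11.6 FPKM in WT and 19.7, 19.7 and 17.4 FPKM in Med14 S983A. Both flanking peaks were higher in each Med14 S983A library than in the WT library of the same treatment. The 3 libraries of a genotype are different treatments and not replicates. How many of all shared peaks show the same order was not counted.

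**Figure D3:**
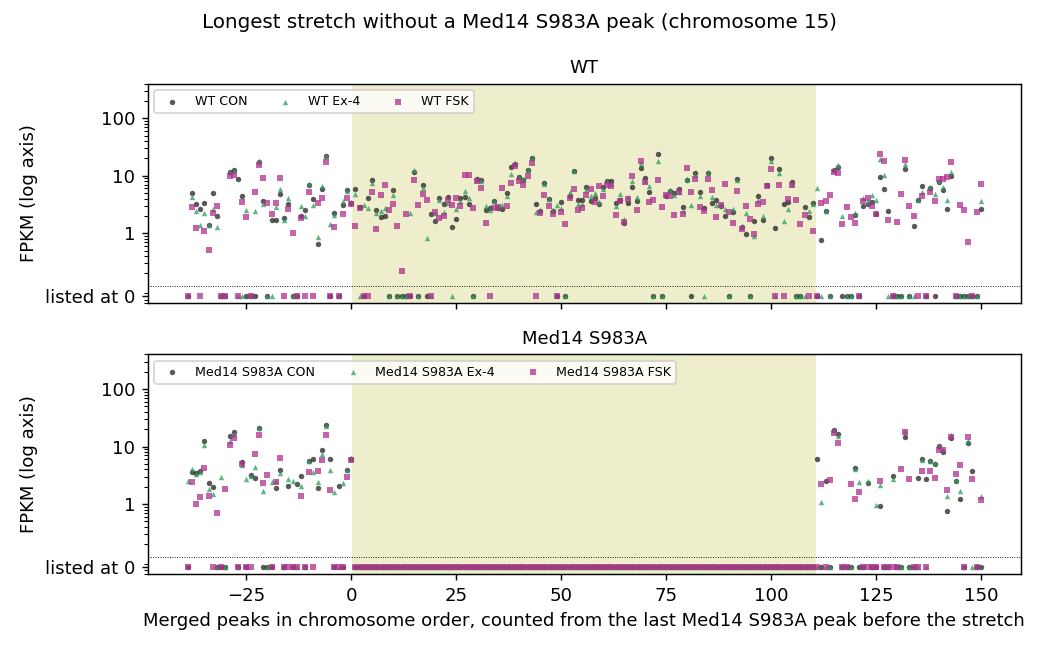
FPKM (vertical axis, log scale, with values listed at 0 on the lowest line) of merged peaks in chromosome order (horizontal axis, counted from the last Med14 S983A peak before the interval) in the 3 WT libraries (top) and the 3 Med14 S983A libraries (bottom), with the interval shaded. All 110 merged peaks in the shaded interval have a value in at least 1 WT library and are listed at 0 in the 3 Med14 S983A libraries, while peaks on both sides have values in both genotypes.

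Intervals of this kind were counted in both directions. Between neighbouring Med14 S983A peaks there were 123 intervals that held at least 5 peaks called in every WT library, with 1049 such peaks in all. They lay on 15 chromosomes, had a median size of 271 kb and together covered 48.7 Mb. Between neighbouring WT peaks there were 5 intervals that held at least 5 peaks called in every Med14 S983A library, with 34 peaks over 0.367 Mb. The largest of these 5 by its number of peaks, between 51466081 and 51587249 on chromosome 20, held 12 peaks over 121 kb.

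The share of WT-only peaks differed between chromosomes. On chromosome 15 it was 17.9% (590 of 3298 peaks called in every WT library), and without the longest run it was 15.8%. Chromosomes 4 and 1 followed with 13.9% (1014 peaks) and 13.0% (1694 peaks). The lowest shares were 7.53% on chromosome 14, 7.81% on chromosome 11 and 8.09% on chromosome X. All 21 chromosomes held WT-only peaks, so the set was widespread but uneven.

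On a finer scale, windows of 100 consecutive peaks called in every WT library held a median of 9 WT-only peaks, and 80% of the 1110 windows held between 4 and 18. In 7 windows at least 50 of the 100 were WT-only, with 409 WT-only peaks between them. The densest, chr15:95037001-101319813, held 67. Windows on chromosome 9 held 59 at chr9:12832021-15113469 and 59 at chr9:21227043-26688070. On chromosome 1 there were 57 at chr1:130019457-134798227, 56 at chr1:2635451-4755242 and 55 at chr1:49311981-52553535. The remaining window was chr4:159482342-161724139, with 56. WT-only peaks thus outnumbered all other peaks called in every WT library in these 7 windows.

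Shared peaks near WT-only peaks were measured next, since their values exist in both genotypes and were not used by the rule. Over all 86576 peaks called in all 6 libraries, 10.5% were at least 2-fold lower in Med14 S983A CON than in WT CON and 4.9% at least 2-fold higher on the log2(FPKM + 0.5) scale, with a median difference of 0.051. Within 10 kb of a WT-only peak there were 9712 of them, of which 1534 (15.8%) were lower and 367 (3.78%) higher, with a median of -0.057. In Ex-4 and FSK the medians near WT-only peaks were -0.047 and -0.059, against 0.052 and 0.038 over all shared peaks. The sign of the median near WT-only peaks depends on the scaling, since it was 0.063 after centring of the libraries, when that of all shared peaks was 0.17. Near WT-only peaks the median was below that of all shared peaks. Centring moves every shared peak by the same amount and so cannot change that order.

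The difference was larger closer to a WT-only peak. Within 2 kb of a WT-only peak the median was -0.11 over 2098 shared peaks, with 19.1% lower. Within 50 kb it was -0.0074 over 34979 peaks, with 13.3% lower. Beside WT-only peaks that stood alone the median was -0.036 over 8561 peaks. Beside runs of 5 or more, 50 shared peaks lay within 10 kb, with medians of -1.53, -1.38 and -1.53 in CON, Ex-4 and FSK, and 32 of them (64%) were lower and 0 higher. Few shared peaks lie that close to such runs, and the 20 shared peaks flanking each of the chromosome 15 and 9 runs, given above, were not lower. Near the mirror set the difference was in the opposite direction, with a median of 0.15 over 5899 shared peaks, 7.95% lower and 10.0% higher.

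The response of the WT-only peaks to FSK was examined in the WT libraries. FSK raised 703 of the 12172 at least 2-fold (5.78%), against 6.96% of all peaks called in every WT library, and lowered 1331 (10.9%), against 5.48%. Among peaks called in all 6 libraries, 5.94% were raised and 3.66% lowered. The median change on the log2(FPKM + 0.5) scale was -0.26 for WT-only peaks and -0.13 for peaks called in all 6 libraries. Over all heights together, WT-only peaks were about as often raised as shared peaks and more often lowered. The rule shapes both shares, since calls in WT CON, WT FSK and Med14 S983A FSK chose the set. A WT-only peak cannot appear or vanish with FSK, and a peak called in Med14 S983A FSK is left out. The 2027 peaks left out by a call in Med14 S983A FSK alone had medians of 2.65 FPKM in WT CON and 4.755 in WT FSK. The part of the rule in these shares was not tested. After quantile normalization of the WT libraries 804 WT-only peaks were raised and 975 lowered, so the lowered share of those that changed went from 65.4% to 54.8%, and among peaks called in all 6 libraries 6.59% were raised and 2.80% lowered.

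The higher share of falls was present at every height. Over 6 classes of the mean WT level, FSK lowered between 4.06% and 12.3% of WT-only peaks and between 1.59% and 4.70% of peaks called in all 6 libraries. In the class of 3 to 5 FPKM the shares were 12.3% and 4.70%, and above 20 FPKM they were 4.06% and 1.59%. For rises the order depended on height. Below 10 FPKM WT-only peaks were less often raised than shared peaks in all 4 classes, with 5.16% against 7.72% at 3 to 5 FPKM and 6.81% against 7.33% at 5 to 10 FPKM. They were more often raised at 10 to 20 FPKM, with 7.42% against 5.75%, and above 20 FPKM, with 5.63% against 2.94%. Peaks called in every WT library and in 1 or 2 Med14 S983A libraries moved in both directions, with 14.5% raised and 9.46% lowered for 1 such library and 14.6% raised and 14.2% lowered for 2. The mirror set, measured in the Med14 S983A libraries, had 2.82% raised and 3.18% lowered, beside 4.56% and 4.28% of peaks called in all 6 libraries in the same libraries.

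WT-only peaks in long runs responded much like those that stood alone. In runs of 5 or more, 6.54% were raised by FSK and 11.4% lowered, and among those alone 5.59% were raised and 10.9% lowered. The peaks in such runs were longer, with a median of 424 bp against 303 bp, and higher, with a median of the mean WT level of 3.97 FPKM against 3.32 FPKM.

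The 703 WT-only peaks raised by FSK had medians of 1.96 FPKM in WT CON, 2.92 in WT Ex-4 and 6.05 in WT FSK. The largest rise was at chr14:62908044-62908876, with 0.539 FPKM in WT CON (95% Poisson interval 0.419 to 0.684), 4.84 in WT Ex-4 (4.47 to 5.23) and 15.5 in WT FSK (14.9 to 16.0). This peak rose 28.7-fold in FPKM from CON to FSK, or by 3.94 on the log2(FPKM + 0.5) scale. The peak at chr10:16148552-16149349 went from 1.87 over 8.58 to 21.6 FPKM, and that at chr3:63366706-63367665 from 2.22 over 11.6 to 21.6 FPKM. At chr10:100521593-100522211 the values were 0.726, 4.52 and 9.47 FPKM. All 4 were also raised by Ex-4, to a level between those of CON and FSK. A place between them is likely for peaks picked by their FSK change. The fifth, chr1:51868715-51869168, had 0.627, 1.04 and 8.58 FPKM, so that its Ex-4 value stayed near CON, and it was part of a run of 14 WT-only peaks.

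The 1331 WT-only peaks lowered by FSK had medians of 4.71 FPKM in WT CON, 3.64 in WT Ex-4 and 1.60 in WT FSK. The largest fall was at chr1:219808778-219809507, with 13.9 FPKM in WT CON (13.2 to 14.6), 6.51 in WT Ex-4 (6.06 to 6.995) and 1.43 in WT FSK (1.26 to 1.61). It fell by 2.90 on the log2(FPKM + 0.5) scale, which is 9.75-fold in FPKM. At chr20:47021562-47022083 the values were 9.84, 3.75 and 0.894 FPKM, and at chr2:34192316-34192772 they were 27.8, 12.2 and 3.40 FPKM. The last 2 were chr7:140727972-140728582, with 29.5, 10.6 and 3.91 FPKM, and chr4:99933751-99934163, with 24.96, 12.8 and 3.55 FPKM. In all 5 the Ex-4 value lay between those of CON and FSK, an order that the choice by the FSK change makes likely.

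**Figure D4:**
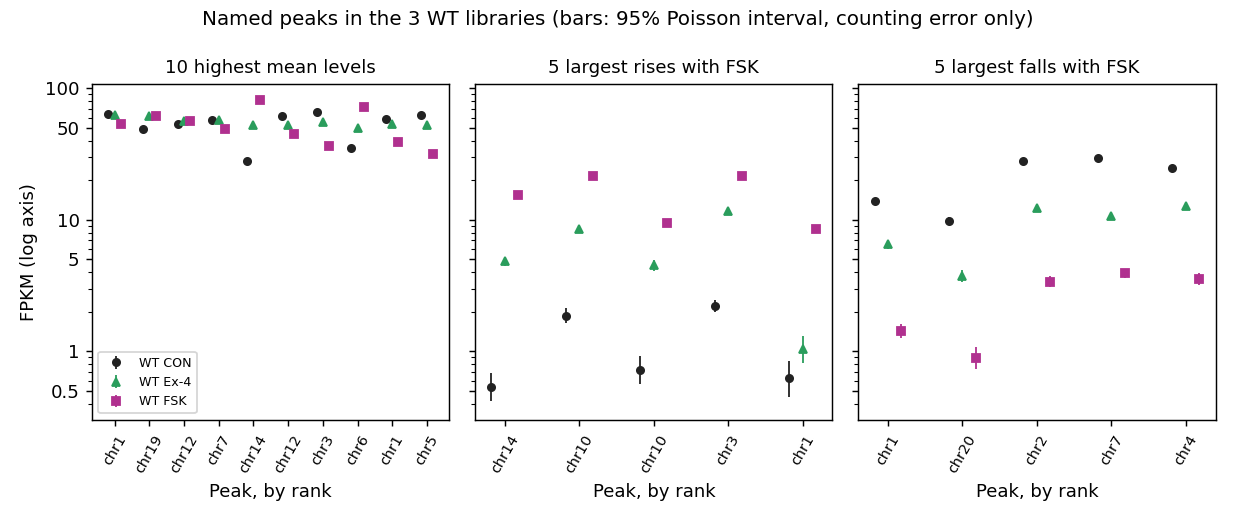
FPKM (vertical axis, log scale) in WT CON (black circles), WT Ex-4 (green triangles) and WT FSK (magenta squares) of the 10 WT-only peaks with the highest mean level and of the 5 with the largest rise and the largest fall with FSK, in order of rank and labelled by chromosome. Bars are 95% Poisson intervals and cover counting error only. In the 10 peaks with the largest changes the Ex-4 value lies between those of CON and FSK. The choice of these peaks by their FSK change makes that order likely.

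Ex-4 changed far fewer WT-only peaks. It raised 82 at least 2-fold (0.674%), against 0.524% of all peaks called in every WT library, and lowered 64 (0.526%), against 0.145%. Among peaks called in all 6 libraries, 0.448% were raised and 0.0647% lowered. The median change was -0.041 for WT-only peaks and -0.017 for peaks called in all 6 libraries on the log2(FPKM + 0.5) scale. With both stimuli, 10110 WT-only peaks (83.1%) stayed within 2-fold of CON.

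The 82 WT-only peaks raised by Ex-4 had medians of 1.36 FPKM in WT CON, 3.81 in WT Ex-4 and 6.49 in WT FSK. The 3 largest rises among them were in peaks already described, by 2.36 at chr14:62908044-62908876, by 2.15 at chr3:63366706-63367665 and by 2.03 at chr10:100521593-100522211 on the log2(FPKM + 0.5) scale. In each of them the FSK value was higher still.

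The 64 WT-only peaks lowered by Ex-4 had medians of 5.98, 2.25 and 1.47 FPKM in WT CON, Ex-4 and FSK. The largest fall was at chr10:4182026-4182320, with 5.84 FPKM in WT CON (5.15 to 6.59), 1.52 in WT Ex-4 (1.19 to 1.92) and 3.94 in WT FSK (3.50 to 4.42), so that the Ex-4 value was the lowest. At chr18:4113070-4113655 the values were 7.85, 2.57 and 1.16 FPKM, and at chr12:39220326-39220691 they were 6.91, 2.24 and 1.75 FPKM. In these 2 peaks FSK was lowest. The Ex-4 and FSK comparisons use the same WT CON library.

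**Figure D5:**
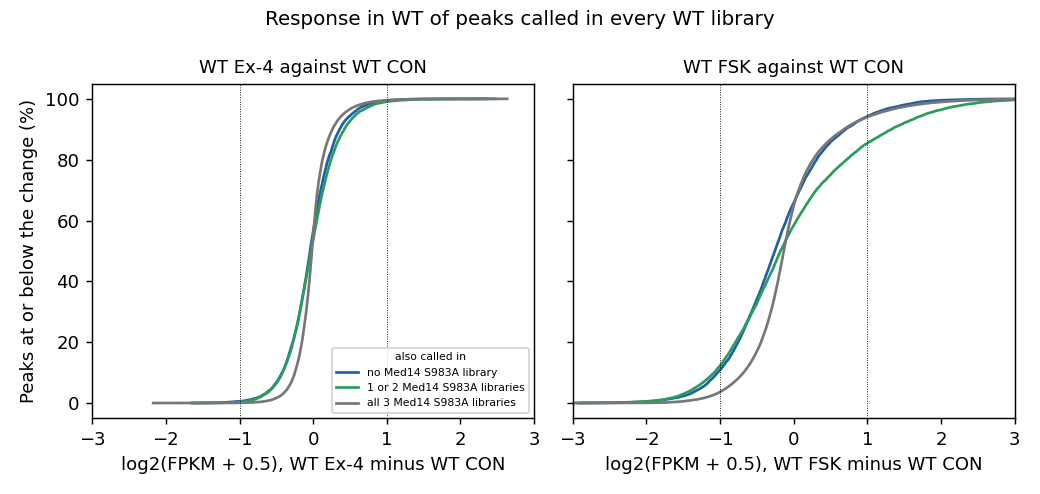
Cumulative share of peaks called in every WT library (percent, vertical axis) at or below each change of log2(FPKM + 0.5) from WT CON (horizontal axis, shown from -3 to 3, with dotted lines at 2-fold) with Ex-4 (left) and FSK (right). Blue is the WT-only set, green is peaks also called in 1 or 2 Med14 S983A libraries and grey is peaks called in all 6 libraries, and with FSK the blue curve reaches 10.9% at a 2-fold fall, where the grey curve is at 3.66%.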

How the data were processed

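ATAC-seq reads of the 6 libraries were trimmed by the authors with Trim Galore, aligned to rn6 with bwa mem, filtered with samtools for mitochondrial, poorly mapped and duplicated reads, and given to macs2 for peak calling in each library. The methods then describe a shift of fragments for the Tn5 cut with ATACseqQC ahead of footprinting, and do not tie the FPKM to shifted or unshifted fragments. The authors deposited FPKM per merged peak, made with HOMER, and the libraries that called each peak. The groups come from the labels, with 1 library per condition.

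From these values, the WT-only peaks were selected by exact match of the calling libraries, and 3 mitochondrial peaks were left out. The set, the rules and the lists were chosen with earlier results of these data known. Changes are differences of log2(FPKM + 0.5) in WT libraries with a 2-fold size rule and no test. Whole reads were recovered from the steps of the low FPKM values, all within 0.15 of a whole number. They gave exact 95% Poisson intervals, which cover counting error only. A count test was not run, since each condition has 1 library.

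Runs are WT-only peaks that follow each other among peaks called in every WT library. The peaks named are the 10 with the highest mean WT level, the 5 with the largest rise and fall with FSK and the 3 with Ex-4 (mean of at least 3 FPKM), the 3 nearest the median, the 5 longest runs, the 3 strongest and weakest of the longest run, and the 3 strongest peaks just outside for each Med14 S983A library. Added over all merged peaks, FPKM times length reached 98.6% to 99.0% of what the scale allows, so values are relative to reads in the library's own peaks. No rn6 annotation or sequence was used, so planned gene lists, markers and motifs were not analysed here.

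Alternatives were other pseudocounts, level filters, size rules, scalings, distances and run lengths. The calculation was tested on simulated data. Tables were handled in pandas 2.3.3 and numpy 2.4.6 under Python 3.11.15, intervals came from scipy 1.17.1, and plots were drawn with matplotlib 3.10.9.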

Additional observations from a re-analysis of the deposited data

Results flagged for a closer look

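Of the 12172 WT-only peaks, 5 carried a small value in a Med14 S983A library whose own list lacks them, unlike the rest of the set. For Med14 S983A CON these values were 0.112 FPKM at chr1:35308376-35308643, 0.040 FPKM at chr20:11176507-11176881, 0.15 FPKM at chr3:22869755-22870350 and 0.203 FPKM at chr3:93598889-93599036. In Med14 S983A Ex-4 it was 0.070 FPKM at chr12:12890734-12891024. All 5 lay within 38 bp of a merged peak that a Med14 S983A library did call, at gaps of 18, 38, 2, 14 and 15 bp in the order given. The part of reads from that neighbouring peak was not tested.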

How the results depend on the processing

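Each condition had 1 library, so leaving out a replicate was not possible and neither variation between cultures nor a second clone can be judged. No paired analysis was possible because no condition has a second library. Values listed at 0 hide reads below the calling threshold, so the size of the genotype difference at WT-only peaks is not known. The number raised by FSK (703) became 429 with a mean WT level of at least 3 FPKM, 1512 with a 1.5-fold rule and 61 with a 4-fold rule. The number lowered by FSK (1331) became 868 with a pseudocount of 1, 765 with that level minimum, 3564 at 1.5-fold and 47 at 4-fold. The median FSK change (-0.26) was -0.30 with no pseudocount, -0.29 with 0.1, -0.23 with 1, -0.23 with the level minimum, -0.20 after centring and -0.17 after quantile normalization. The number raised by Ex-4 (82) was 178, 151 and 34 with pseudocounts of 0, 0.1 and 1, 51 with the level minimum, 468 at 1.5-fold and 3 at 4-fold. The number lowered by Ex-4 (64) was 150, 128 and 35 with those pseudocounts, 37 with the level minimum, 525 at 1.5-fold and 0 at 4-fold. The median Ex-4 change (-0.041) was -0.031 after centring and -0.032 after quantile normalization. With the level minimum 7054 WT-only peaks remained of 12172, and their share of peaks called in every WT library was 7.90% instead of 10.9%. WT-only peaks in runs of at least 3 (2464) became 1147 when all merged peaks set the order and 1224 for runs of at least 5. The median genotype difference of shared peaks near WT-only peaks (-0.057) was -0.11 at 2 kb, -0.0074 at 50 kb and reversed to 0.063 after centring, when that of all shared peaks became 0.17. The share with a Med14 S983A peak close by (15.8% at 1 kb) was 8.40% at 500 bp and 64.1% at 10 kb. Intervals with at least 5 WT peaks (123) became 436 for at least 3 and 27 for at least 10. The counts of intervals, and the removal of the longest run or of WT-only peaks within 1 kb of a Med14 S983A peak, were chosen after the data were seen. Without the longest run 695 were raised and 1326 lowered by FSK, and without those close peaks 610 were raised and 1146 lowered. For the changes that come from another size rule, filter, distance or number of peaks, the alternative's own construction sets the value, and for the others the cause was not tested.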
